A study of Mus musculus with 120 samples.

Results

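The striatum of 26-week-old mice was compared between 2 knock-in genotypes of spinocerebellar ataxia type 1, an inherited neurodegenerative disease in which ataxin-1 carries an overlong glutamine tract. The comparison used 8 libraries of the 120 in the series, 4 from 175QK772T mice and 4 from 175Q mice, chosen by the region, genotype and age in their titles, and all 19692 genes that passed a filter on low counts were tested. The 175Q mice carried 1 Atxn1 allele with 175 glutamine codons and 1 normal mouse allele with 2 (Atxn1 175Q/2Q), in every cell that expresses the gene. In 175QK772T mice the expanded allele also carried K772T, which swaps lysine for threonine in the protein's nuclear localization signal, again beside a normal allele. WT mice, 4 in number, had neither change and served as the reference level. All 12 mice were on the C57BL/6J background, and each genotype held 2 females and 2 males. The descriptions of the 26-week libraries name the lines with another repeat length than their titles and genotype fields, whose 175Q and 175QK772T are used here. The question of the comparison was which differences of the 175Q striatum depend on the localization signal.

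Ataxin-1 works in the nucleus, where it binds the transcriptional repressor capicua, and its expanded form is toxic to neurons. The nuclear localization signal is a short basic stretch near the end of the protein that brings it into the nucleus. The striatum is the input station of the basal ganglia, and most of its neurons are inhibitory projection neurons. Those of the direct pathway carry the dopamine D1 receptor and the peptide precursor of substance P, and those of the indirect pathway carry the D2 receptor, the striatal adenosine receptor and the precursor of enkephalin. Both kinds read dopamine through cyclic AMP, and the genes of this pathway are among the most abundant transcripts of the tissue.

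The codons of the signal are shown because the 2 mutant genotypes differ there. The 30 bases lie in the last of 2 coding exons of mouse Atxn1 at chr13:45557172-45557201 of GRCm38, on the minus strand, and the capitals mark the lysine codon at chr13:45557190-45557192. This lysine is residue 755 of 799 in the reference mouse protein, and the number in the allele's name follows the longer human protein. The sequence is that of the reference transcript, not of the knock-in allele.
Atxn1: gccacgaggAAGaggaggtggtcggcgccg

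Atxn1 itself was checked first. The gene (ENSMUSG00000046876) was at 107, 95, 117 and 125 CPM (a gene's count scaled to library size, made comparable between libraries by TMM) in the 4 libraries of 175Q and at 126, 133.97, 122 and 117 CPM in the 4 of 175QK772T. The ranges overlapped. The mean was 111 ± 13.1 CPM (SD, n = 4) in 175Q, 125 ± 7.19 in 175QK772T and 126 ± 10.6 in WT, and the difference between the mutants did not pass the test (log2 fold change 0.17 ± 0.08 SE, edgeR adjusted p = 0.196). Both alleles add to the same gene count, so that the level checks neither allele alone. Exons of Atxn1 overlap those of Gmpr on the other strand, whose counts were 37.6% of its own, and strand use in these counts is not given in the sources used here.

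Library totals ran from about 28650600 to 57281400 counted read pairs. The share of counts on mitochondrial genes was 4.89 to 5.50% in 175Q, 5.65 to 6.66% in 175QK772T and 6.17 to 7.96% in WT. Markers of tissue around the striatum differed between libraries. Slc17a7, which marks excitatory neurons of the cortex, was at 215, 92.5, 139 and 286 CPM in 175Q, at 441, 527, 508 and 26.6 CPM in 175QK772T and at 149 to 753 CPM in WT. The sum of 12 cortical excitatory neuron genes was 412 to 781 CPM in 175Q and 539 to 1465 CPM in 175QK772T, where replicate 4 was the lowest. Transthyretin (Ttr), which marks the choroid plexus, was at 2855 CPM in 175QK772T replicate 3 and at 6.54 to 84.1 CPM in the other 7 mutant libraries. The cortical genes thus moved with genotype in 3 of the 4 libraries of 175QK772T. Results are given below with these genes in the model and without 175QK772T replicates 3 and 4. Both settings were added after the data were seen. Replicates 3 and 4 were the only males of 175QK772T, so that the second setting leaves replicates 1 and 2, both female. In calls lost there, tissue, sex and the smaller group cannot be told apart. In bulk tissue, fewer cells of a type and less RNA per cell cannot be told apart.

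**Figure D1:**
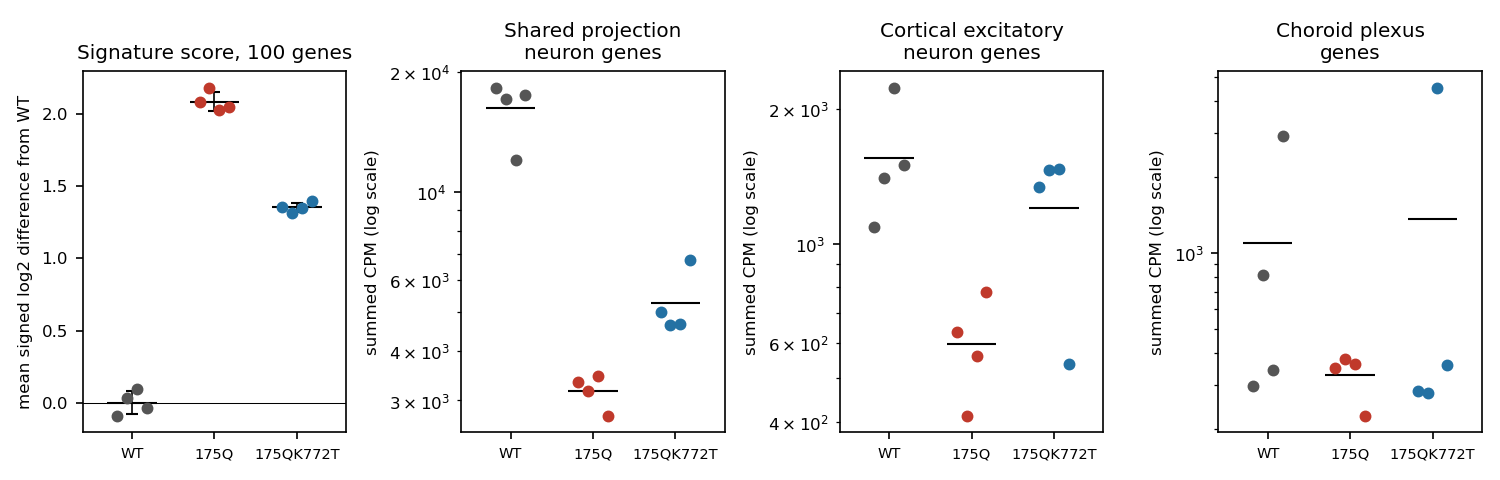
Each point is 1 library of the 26-week striatum, the lines are means of 4 libraries and the bars in the first panel are SD. The first panel shows the signature score (175Q 2.03 to 2.18, 175QK772T 1.32 to 1.40), and the others show summed CPM of marker lists on log axes, with 175QK772T replicate 4 low in cortical genes and replicate 3 high in choroid plexus genes.

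Of the 19692 genes, 2689 (13.7%) differed between 175QK772T and 175Q, 1439 (7.31%) higher and 1250 (6.35%) lower in 175QK772T (edgeR's quasi-likelihood test with sex as a covariate, Benjamini-Hochberg adjusted p below 0.05). The median log2 fold change over all tested genes was -0.01. Rises were larger than falls: 196 of the called genes were more than 2-fold higher and 86 more than 2-fold lower, and the median log2 fold change was 0.49 among genes called higher and -0.33 among genes called lower. Against WT, 8863 genes (45%) were called in 175Q, 4462 (22.7%) higher and 4401 (22.3%) lower. In 175QK772T 4609 genes (23.4%) were called against WT, 2156 (10.9%) higher and 2453 (12.5%) lower. The 3 comparisons share libraries, so their values are set side by side below and no overlap between them was computed. The number of calls between the mutants was 1629 without 175QK772T replicate 2, 1595 without 175QK772T replicate 3 and 1590 without 175Q replicate 2. Genes called lower numbered 468 without 175QK772T replicate 3, 661 without 175QK772T replicate 2, 672 without 175Q replicate 2, 745 without 175Q replicate 4 and 832 without 175Q replicate 3, and genes called higher 918 without 175Q replicate 2. With the cortical genes in the model 3117 genes were called, and with 175QK772T replicates 3 and 4 both left out 1005.

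**Figure D2:**
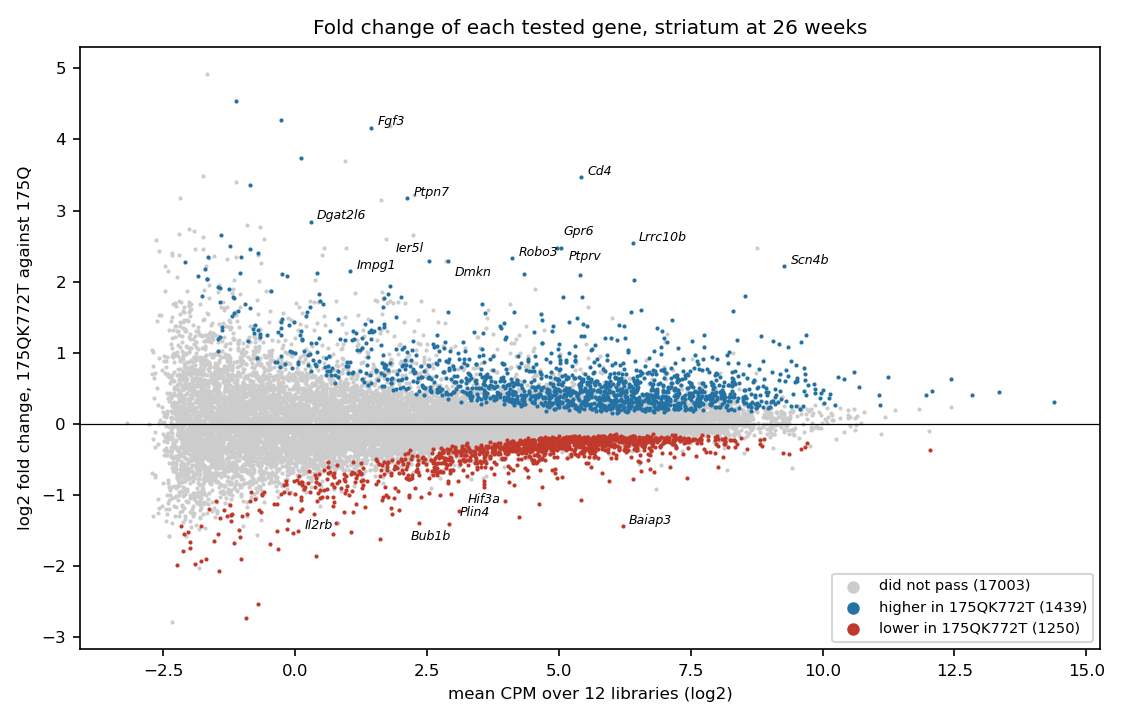
Each point is 1 of 19692 tested genes, with its mean CPM over the 12 libraries on a log2 axis and its log2 fold change of 175QK772T against 175Q. The 1439 genes called higher are blue, the 1250 called lower are red, and 17 of the 24 genes with the largest rises or falls carry names.

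A score over 100 genes placed the mutants relative to WT with genes chosen in other mice. The genes were those of smallest p for 175Q against WT in the striatum at 10 weeks, 12 of them higher and 88 lower in 175Q there, and the score is the mean log2 difference from WT, signed by that direction. It was 2.08, 2.18, 2.03 and 2.05 in the 4 libraries of 175Q at 26 weeks and 1.35, 1.32, 1.35 and 1.40 in those of 175QK772T. All 4 libraries of 175QK772T lay below all 4 of 175Q and above the WT libraries, which ran from -0.09 to 0.10. The mean score of 175QK772T (1.35 ± 0.03, SD, n = 4) was 64.9% of that of 175Q (2.09 ± 0.07), and the two-sided exact permutation p was 0.0286, the smallest that the 70 assignments allow.

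Most genes shared by both kinds of projection neuron were higher in 175QK772T than in 175Q and below WT. Of 19 tested genes on this list, 14 were called higher in 175QK772T and none lower, beside 7.31% and 6.35% of all tested genes. Their median log2 fold change was 0.76, beside -0.01 over all tested genes. All 19 were called lower than WT in 175Q (median -2.24) and in 175QK772T (median -1.45), and the median level was 21.2% of WT in 175Q and 36.7% in 175QK772T. Leaving out 1 library gave 11 to 15 called genes, and leaving out 175QK772T replicates 3 and 4 together gave 8. In 175QK772T replicate 4 the summed level of the shared genes was the highest of the 8 mutant libraries, at 6753 CPM, and Slc17a7 was the lowest. With the cortical genes in the model 18 of the 19 were called higher. The covariate there is the mean over the cortical genes, and it includes Lamp5 and Nrgn, which were themselves called higher in 175QK772T. Tissue and genotype are thus not told apart in it.

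Scn4b, the sodium channel beta 4 subunit that is dense in these neurons, was at 27.1, 26.8, 34.1 and 24.2 CPM in 175Q and at 109, 114, 132 and 175 CPM in 175QK772T. WT ran at 1828, 1759, 1229 and 1981 CPM. Scn4b is among the largest rises described below, which were chosen without overlap of the mutants. The gene was 4.66-fold higher in 175QK772T (2.22 ± 0.17, adjusted p = 4.59e-05; here and below the log2 fold change of 175QK772T against 175Q ± SE from edgeR's quasi-likelihood test, 4 mice a group) and stood at 7.8% of WT. Ppp1r1b encodes DARPP-32, the phosphatase inhibitor that integrates dopamine and glutamate signals. It was at 209, 214, 225 and 145 CPM in 175Q and at 415, 340.1, 408 and 609 CPM in 175QK772T (1.15 ± 0.18, adjusted p = 0.00237), so that the groups did not overlap. Rasd2, a striatal small GTPase also called Rhes, was at 64.7, 64.5, 75.9 and 52.7 CPM and 169, 184, 181 and 242 CPM in turn (1.58 ± 0.15, adjusted p = 0.000102). Itpka, an inositol trisphosphate kinase of dendritic spines, was at 23.7, 18, 23.8 and 25.3 CPM and 59.97, 55.2, 56 and 62.4 CPM (1.37 ± 0.09, adjusted p = 7.15e-06), again without overlap.

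The called members included Rgs9, a brake on G-protein signalling (1.01 ± 0.20, adjusted p = 0.0112), and Pde10a, the phosphodiesterase of the projection neurons (0.64 ± 0.16, adjusted p = 0.0244). The 5 genes that did not pass were Gnal (0.38 ± 0.13, adjusted p = 0.0732), Bcl11b (0.28 ± 0.13, adjusted p = 0.177), Strn (0.24 ± 0.12, adjusted p = 0.218), Meis2 (0.25 ± 0.14, adjusted p = 0.275) and Foxp1 (0.12 ± 0.13, adjusted p = 0.586). Bcl11b, Meis2 and Foxp1 encode transcription factors that specify striatal neurons. Foxp1 was at 153.8 ± 22.6 CPM in 175Q, 168 ± 31.5 in 175QK772T and 320.2 ± 52.5 in WT (SD, n = 4).

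**Figure D3:**
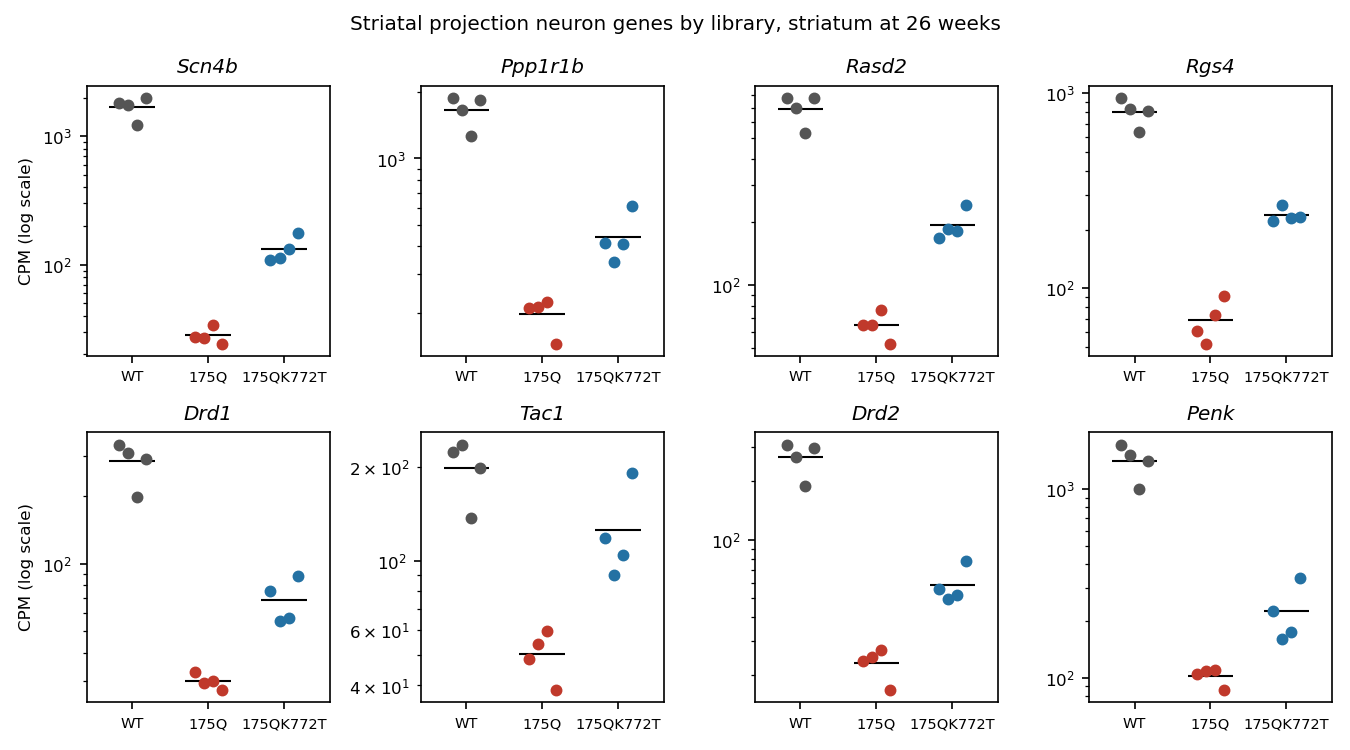
Points are the 4 libraries of each genotype, with CPM on log axes and lines at the group means. For each of the 8 genes the 175QK772T libraries lie above the 175Q libraries, and for 7 of them, Tac1 being the exception, below all WT libraries.

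Markers of the direct pathway were called higher in 175QK772T for 4 of 10 genes, beside 7.31% of all genes. None was called lower (median 0.45). Drd1, the D1 receptor, was at 32.9, 29.3, 30.1 and 27.3 CPM in 175Q and 75.5, 55.4, 57.1 and 88.1 CPM in 175QK772T (1.21 ± 0.18, adjusted p = 0.00247). Its groups did not overlap, and 175QK772T stood at 24.2% of WT against 10.5% in 175Q. Tac1, the substance P precursor, was at 48.7, 54.3, 59.7 and 38.7 CPM in 175Q and 118, 89.8, 105 and 190.2 CPM in 175QK772T (1.30 ± 0.24, adjusted p = 0.00826), with replicate 4 the highest. In this gene the difference from WT did not pass in 175QK772T (log2 fold change -0.66 ± 0.24, edgeR adjusted p = 0.0736). Chrm4, the M4 muscarinic receptor (0.73 ± 0.12, adjusted p = 0.00263), and Slc35d3 (0.96 ± 0.27, adjusted p = 0.0442) were the others. The dynorphin precursor Pdyn did not pass (0.96 ± 0.30, adjusted p = 0.0692), and neither did the transcription factor genes Isl1 (-0.33 ± 0.27, adjusted p = 0.457) and Ebf1 (-0.46 ± 0.19, adjusted p = 0.142).

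Markers of the indirect pathway were called higher for 7 of 9 genes and lower for none (median 1.13), beside 7.31% of all genes higher. Their median level was 14.4% of WT in 175Q and 36.9% in 175QK772T. Drd2, the D2 receptor, was at 23.7, 24.9, 27 and 16.8 CPM in 175Q and 55.6, 49.6, 52.1 and 78.1 CPM in 175QK772T (1.35 ± 0.20, adjusted p = 0.00219). Penk, the enkephalin precursor, was at 105, 109, 110.4 and 86.1 CPM and 227, 161, 175 and 337 CPM in turn (1.13 ± 0.23, adjusted p = 0.0127), beside 1412 ± 303 CPM in WT. Neither gene's groups overlapped, and in both the highest library of 175QK772T was replicate 4. Adora2a, an adenosine receptor gene, was at 22.6, 25.6, 25.2 and 12.9 CPM and 47.3, 36.4, 40.6 and 67.6 CPM (1.16 ± 0.25, adjusted p = 0.0173). Oprd1, the delta opioid receptor (1.35 ± 0.14, adjusted p = 0.000113), Plxdc1 (0.76 ± 0.10, adjusted p = 0.000438), Grik3, a kainate receptor subunit (0.48 ± 0.11, adjusted p = 0.0158), and Gpr6, described below, completed the list. Sp9, a transcription factor of these neurons (-0.28 ± 0.15, adjusted p = 0.244), and Ptprm (0.05 ± 0.06, adjusted p = 0.575) did not pass. Whether the 2 pathways differed from each other in the size of the rise was not tested.

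Several genes of dopamine and cyclic AMP signalling are also on the lists above. On their own list 16 of 20 were called higher and none lower (median 0.79), beside 7.31% of all genes called higher. Rgs4, which shortens G-protein signals, was at 60.1, 52, 73.3 and 90.8 CPM in 175Q and 223, 268, 229.7 and 232 CPM in 175QK772T (1.80 ± 0.16, adjusted p = 8e-05). The groups were far apart, and all WT libraries were above 175QK772T at 943, 828, 629.6 and 811 CPM. Adcy5, the adenylyl cyclase of striatal neurons (0.76 ± 0.12, adjusted p = 0.00207), Pde1b (0.82 ± 0.14, adjusted p = 0.00348), Prkcb (0.62 ± 0.07, adjusted p = 0.000204), Rgs2 (0.89 ± 0.12, adjusted p = 0.000616) and Adora1, the A1 receptor (0.59 ± 0.08, adjusted p = 0.000653), were among those called. Gnal, Prkar2b, Pde4b and Drd3 did not pass (log2 fold changes 0.38, 0.26, 0.14 and -0.24). Among 15 neuropeptide and opioid genes 3 were called higher, Oprd1, Tac1 and Penk, beside 7.31% of all genes. None was called lower (median 0.45).

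The 12 largest rises were taken among genes that averaged 1 CPM or more over the 12 libraries, WT included, with no overlap between the mutants. Their means in 175Q were 0.826 to 11.6% of WT, which this choice favours, since it ranks by the ratio of the mutants and lets genes pass through their level in WT. Cd4, the T-cell co-receptor gene, was at 1.04, 1.39, 2.68 and 1.43 CPM in 175Q and 14, 11.7, 19 and 28.6 CPM in 175QK772T (3.47 ± 0.37, adjusted p = 0.000548). WT ran at 128, 108, 78.6 and 120.3 CPM, so that the mean of 175Q was 1.51% of WT and that of 175QK772T 16.9%. Gpr6, an orphan receptor of the indirect pathway, was at 3.75, 2.34, 3.27 and 1.18 CPM and 16.5, 9.84, 9.21 and 21.5 CPM in turn (2.48 ± 0.39, adjusted p = 0.00419). Lrrc10b, a leucine-rich repeat gene, was at 5.94, 6.59, 8.17 and 4.7 CPM and 30.04, 29.5, 39 and 51.6 CPM (2.54 ± 0.22, adjusted p = 0.000134). The lack of overlap in these genes is a condition of the choice. That condition, in either direction, was met by 3950 of the 19692 tested genes. In all 3 genes replicate 4 was the highest library of 175QK772T.

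Fgf3, a fibroblast growth factor gene, had 10 read pairs over the 4 libraries of 175Q, 190 over those of 175QK772T and 1101 over those of WT. Its log2 fold change was 4.17 ± 0.76, adjusted p = 0.00603. Of the 10 pairs in 175Q, 9 were in replicate 4, and without that library the fitted value was 6.55, against a single pair, so that its size is not fixed by these data. Ptpn7, a protein tyrosine phosphatase gene, had 18, 180 and 1870 pairs in the same order (3.18 ± 0.59, adjusted p = 0.00622). Dgat2l6 had 9, 65 and 507 (2.85 ± 0.52, adjusted p = 0.00333). These 3 genes had few counts in 175Q and stayed below WT in 175QK772T, where the means stood at 15.5, 8.42 and 13.1% of WT. Ptprv (2.47 ± 0.29, adjusted p = 0.000867), the axon guidance receptor gene Robo3 (2.33 ± 0.46, adjusted p = 0.0112), the immediate early response gene Ier5l (2.30 ± 0.18, adjusted p = 1.22e-05), Dmkn (2.29 ± 0.38, adjusted p = 0.00393) and Impg1 (2.15 ± 0.29, adjusted p = 0.000438) completed the rises with Scn4b. Without 175QK772T replicates 3 and 4 the call of Robo3 was lost (adjusted p = 0.0505). Robo3 was lower in replicate 4 of 175QK772T (8.37 CPM) than in the other 3 (18.5 to 23.1 CPM), the reverse of the projection neuron genes.

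The 12 largest falls were smaller in size, and 11 of the genes, all but Il2rb, had a mean above WT in 175Q, a side that ranking by the ratio favours. Baiap3, which encodes a protein of dense-core vesicle trafficking, was at 160.3, 153.7, 142 and 133 CPM in 175Q and 49.7, 43.6, 39.8 and 84.6 CPM in 175QK772T (-1.43 ± 0.23, adjusted p = 0.00455), beside 20.7 ± 4.06 CPM in WT. The value is uncertain because Tsr3 overlaps it on the other strand with 28.4% of its counts. Skor1, a transcriptional corepressor gene, was at 7.55, 6.1, 7.26 and 9.02 CPM and 2.54, 4.75, 3.53 and 1.75 CPM (-1.27 ± 0.24, adjusted p = 0.00372). In WT it had 23 read pairs over 4 libraries. That the mutants do not overlap in these genes is again a condition of the choice. Bub1b, a mitotic checkpoint kinase gene (-1.40 ± 0.27, adjusted p = 0.0054), and Asf1b, a histone chaperone gene of dividing cells (-1.24 ± 0.21, adjusted p = 0.00194), were at 317% and 426% of WT in 175Q and at 119.9% and 177% in 175QK772T. Hif3a, a hypoxia-inducible factor gene (-1.22 ± 0.15, adjusted p = 0.000237), and Plin4, a lipid droplet gene (-1.41 ± 0.28, adjusted p = 0.00788), respond to glucocorticoids and were 88.2% and 97.8% of WT in 175QK772T. Plin4 overlaps Hdgfl2, which has 1121% of its counts, on the other strand. Il2rb (-1.51 ± 0.21, adjusted p = 0.000673), Caps2 (-1.27 ± 0.24, adjusted p = 0.00418), Zfp820 (-1.24 ± 0.19, adjusted p = 0.00131), Ttc39aos1 (-1.21 ± 0.19, adjusted p = 0.00129) and Atp8b5 (-1.19 ± 0.36, adjusted p = 0.0437) also fell. Il2rb was below WT in both mutants, at 69.7% and 24.6%. Atp8b5 lost its call without any 1 of 7 libraries, all but 175Q replicate 1, with an adjusted p of up to 0.137. Without 175QK772T replicates 3 and 4 the calls of Bub1b (adjusted p = 0.102), Plin4 (adjusted p = 0.147) and Caps2 (adjusted p = 0.069) were lost.

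Many ion channels and receptors of the synapse were higher in 175QK772T, and in the following families no member was called lower. Over all tested genes 7.31% were called higher and 6.35% lower. Of 20 potassium channel genes 13 were called higher (median 0.41), of 17 glutamate receptor genes 11 (median 0.36), of 20 calcium signalling genes 10 (median 0.42), of 17 genes of GABA synthesis and GABA receptors 6 (median 0.17) and of 21 synaptic vesicle and scaffold genes 7 (median 0.39). Kcnip2, a subunit of A-type potassium channels, was at 63.8, 68.2, 72.5 and 60.05 CPM in 175Q and 145, 145, 146 and 161 CPM in 175QK772T (1.17 ± 0.09, adjusted p = 1.22e-05). Gabrd, the delta subunit of extrasynaptic GABA-A receptors, was at 20.4, 20.1, 23 and 17.9 CPM and 45.2, 44, 46.1 and 51.9 CPM (1.20 ± 0.10, adjusted p = 2.18e-05). In both genes every 175QK772T library was above every 175Q library. Grm4, a metabotropic glutamate receptor (1.09 ± 0.13, adjusted p = 0.000468), Gria3, an AMPA receptor subunit (0.57 ± 0.07, adjusted p = 0.000414), Itpr1, the inositol trisphosphate receptor (0.59 ± 0.08, adjusted p = 0.000801), Camk2b (0.49 ± 0.07, adjusted p = 0.00106) and Dlgap3, a scaffold of corticostriatal synapses (0.92 ± 0.09, adjusted p = 6.83e-05), were further examples. The glutamate receptor count fell to 7 without 175QK772T replicate 2, 175Q replicate 2 or 175Q replicate 3. The GABA count fell to 3 without 175QK772T replicate 2 or 175Q replicate 2.

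Immediate early genes, which neurons switch on within minutes of activity, were called higher for 7 of 15, beside 7.31% of all genes. None was called lower (median 1.05). Egr3, a zinc-finger factor, was at 28.8, 22.8, 31.3 and 32.4 CPM in 175Q and 101, 94.1, 76.9 and 79.6 CPM in 175QK772T (1.61 ± 0.17, adjusted p = 0.000308). Arc, a synaptic plasticity gene, was at 15.7, 22.6, 25.7 and 33.9 CPM and 146, 119, 79.4 and 57.6 CPM (2.03 ± 0.52, adjusted p = 0.0329), and its WT libraries ranged from 43.8 to 239 CPM. All 4 libraries of 175QK772T were above those of 175Q, with replicate 4 the lowest. Homer1 (0.78 ± 0.11, adjusted p = 0.000995), Fosb (0.84 ± 0.15, adjusted p = 0.00344), Egr1 (1.47 ± 0.34, adjusted p = 0.0219), Egr4 (1.05 ± 0.26, adjusted p = 0.0226) and Junb (1.38 ± 0.38, adjusted p = 0.0423) were the other calls, whereas Fos (1.6 ± 0.73, adjusted p = 0.187) and Npas4 (1.02 ± 0.50, adjusted p = 0.221) did not pass. Counts of 3 or 4 were reached without any 1 of 7 mutant libraries, all but 175QK772T replicate 4, without which 9 were called. With the cortical genes in the model 5 were called, and 6 were called with 175QK772T replicates 3 and 4 both left out.

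Target genes of capicua, the repressor bound by ataxin-1, were called higher in 175QK772T for 12 of 15, beside 7.31% of all genes. None was called lower, and the median log2 fold change was 0.64. The median level was 62.9% of WT in 175Q and 98.3% in 175QK772T. Against WT, 11 were called lower in 175Q, and in 175QK772T 2 were called lower, Spry2 and Spred1. Spry2, an inhibitor of growth factor signalling, was at 20.7, 18.9, 18.8 and 20.7 CPM in 175Q and 36.8, 37.2, 34.2 and 30.03 CPM in 175QK772T (0.81 ± 0.12, adjusted p = 0.000958). Etv5, an ETS factor, was at 35.9, 35.6, 45.5 and 39.8 CPM and 73.3, 82, 74.5 and 54.3 CPM (0.86 ± 0.16, adjusted p = 0.00779). In both genes every library of 175QK772T was above every library of 175Q. Etv4 (0.78 ± 0.14, adjusted p = 0.00348), the MAP kinase phosphatase gene Dusp6 (0.99 ± 0.24, adjusted p = 0.0254), the adaptor gene Shc3 (0.64 ± 0.09, adjusted p = 0.000605) and the cyclin gene Ccnd1 (0.61 ± 0.13, adjusted p = 0.0085) were also called. The exceptions to the calls were Etv1 (0.22 ± 0.09, adjusted p = 0.124), Pcdh18 (0.23 ± 0.11, adjusted p = 0.195) and Polq (0.06 ± 0.18, adjusted p = 0.869). Without 175QK772T replicate 2 the count was 7, and with replicates 3 and 4 both left out it was 6.

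None of 12 genes of ataxin-1 and its partners was called, beside 13.7% of all genes, and their median was 0.01. With so few genes, the count is not read as a result about this list. Cic, which encodes capicua, was at 191 ± 12.8 CPM in 175Q, 194 ± 20.8 in 175QK772T and 186 ± 22.7 in WT (0.01 ± 0.09, adjusted p = 0.944).

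Promoters were searched for sites of the regulators named above, with start sites from RefSeq (GRCm38.p6, 250 bases before to 50 after each start). Of 19677 tested gene symbols 13039 had at least 1 such window, and both strands were read. The capicua octamers TGAATGAA or TGAATGGA were in 2.03% of these 13039 genes, in 2.21% of the 997 called higher and in 1.13% of the 973 called lower. The cyclic AMP response element TGACGTCA was in 3.27% of the genes with a window, 2.81% of those higher and 3.7% of those lower. The Egr site GCGGGGGCG was in 5.96% of the genes with a window, 9.53% of those higher and 4.01% of those lower. These shares are descriptions with no test. Of 9 capicua targets with a window 1 held an octamer, and a window without a match says only that these letters are not in it. Shown are the 100 bases before the start of 3 called genes, each with 1 motif in capitals, to let the letters around each match be read. Spred3, an inhibitor of RAS signalling (0.46 ± 0.11, adjusted p = 0.0162), lies at chr7:29168648-29168747. Gpr6 lies at chr10:41072291-41072390. Hpca, the calcium sensor hippocalcin (0.79 ± 0.12, adjusted p = 0.00113), lies at chr4:129121304-129121403. All 3 are read on the minus strand, and the motifs begin 10, 78 and 87 bases before the start. Hpca has 3 windows, and the start used is that of the window with the Egr site. The 3 genes were chosen after their values were seen.
Spred3, capicua octamer: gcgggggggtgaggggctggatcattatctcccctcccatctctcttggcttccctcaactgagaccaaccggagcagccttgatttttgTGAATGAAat
Gpr6, cyclic AMP response element: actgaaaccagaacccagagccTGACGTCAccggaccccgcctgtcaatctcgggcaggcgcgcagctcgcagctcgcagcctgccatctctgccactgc
Hpca, Egr site: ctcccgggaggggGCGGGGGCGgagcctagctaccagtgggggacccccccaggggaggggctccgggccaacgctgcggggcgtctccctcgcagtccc

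Several genes of the transcription machinery were lower in 175QK772T than in 175Q. On a list of RNA polymerase II and histone acetylation genes 5 of 12 were called lower, beside 6.35% of all genes. None was called higher (median -0.05). Polr2a, which encodes the catalytic subunit of RNA polymerase II, was at 211, 206, 209 and 205 CPM in 175Q, 144, 162, 149 and 147 CPM in 175QK772T and 76.6, 82.7, 80.9 and 78.1 CPM in WT (-0.46 ± 0.05, adjusted p = 0.000143). The 3 genotypes were apart in every library, with 175QK772T between the others at 189% of WT. The acetyltransferase genes Ep300 (-0.31 ± 0.05, adjusted p = 0.00128), Crebbp (-0.34 ± 0.06, adjusted p = 0.00188) and Kat2b (-0.36 ± 0.09, adjusted p = 0.0186) and the deacetylase gene Hdac1 (-0.34 ± 0.08, adjusted p = 0.0106) were the other 4. Of these 5, Polr2a and Hdac1 were also called higher than WT in 175QK772T. The count was 3 without 175QK772T replicate 3 and 1 without replicates 3 and 4.

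**Figure D4:**
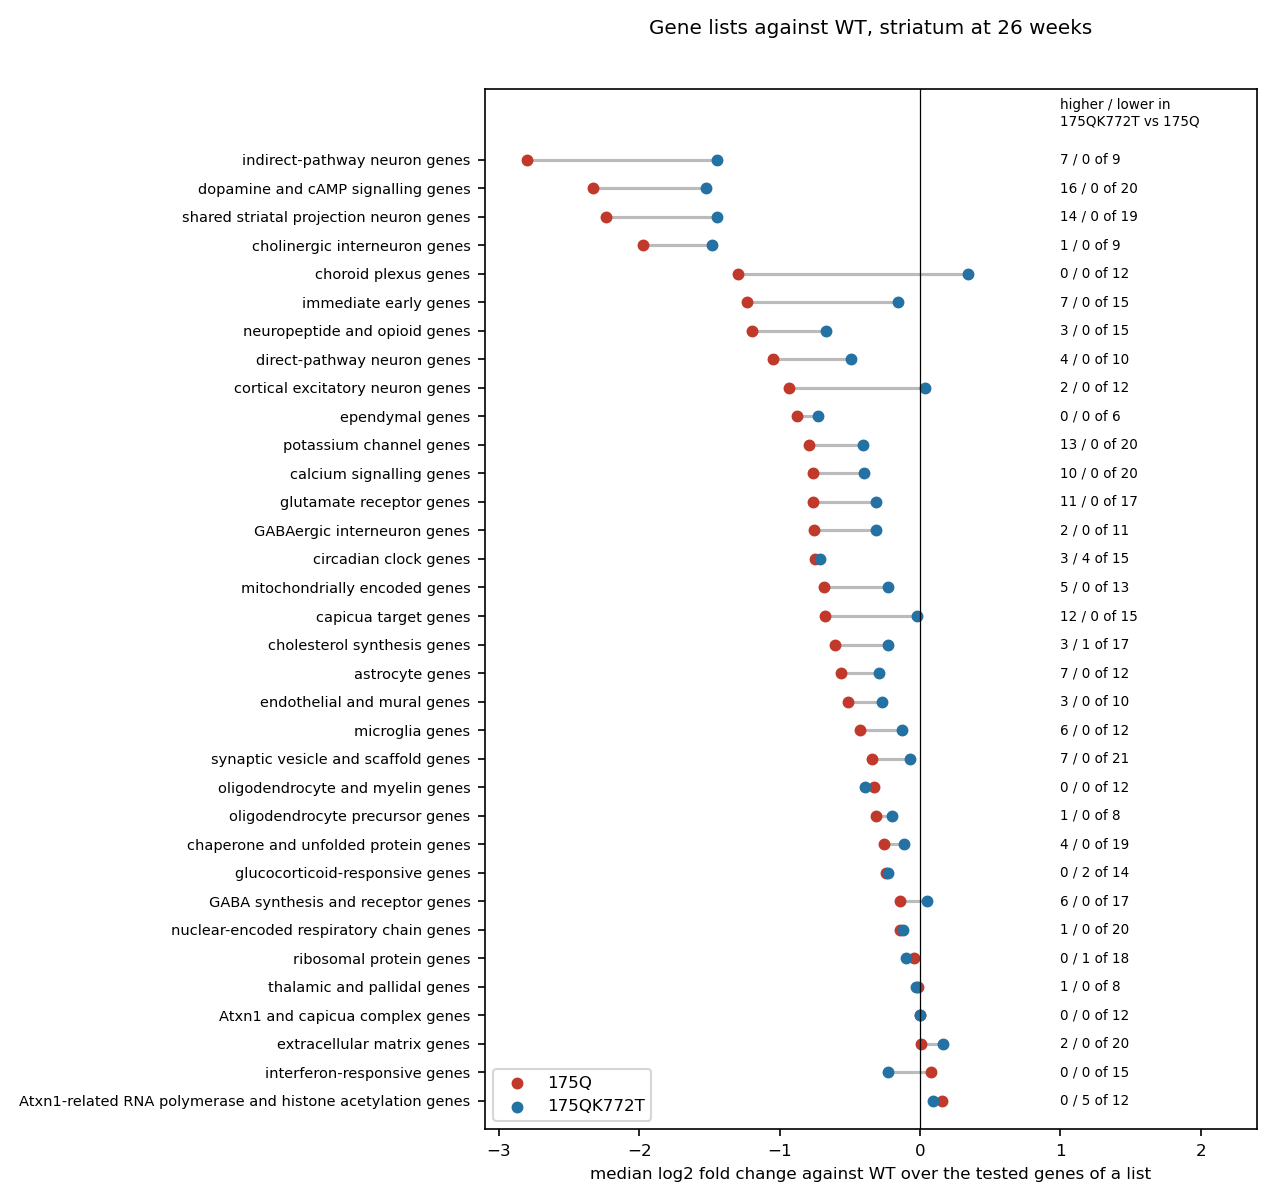
For each of 34 gene lists, the points give the median log2 fold change against WT over the list's tested genes in 175Q (red) and 175QK772T (blue), and the numbers at the right count the genes called higher and lower in 175QK772T against 175Q. In the 4 lists with the lowest medians in 175Q (-2.80 to -1.97), the 175QK772T medians lie between -1.52 and -1.45.

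Genes of glia and vessels differed by smaller amounts. Of 12 astrocyte genes 7 were called higher and none lower (median 0.25), beside 7.31% of all genes called higher. Slc1a2, the main glutamate transporter of the brain, was at 1300.0, 1299, 1568 and 1712 CPM in 175Q and 2335, 2555, 2381 and 2009.9 CPM in 175QK772T (0.67 ± 0.07, adjusted p = 0.000134). WT ran above both at 3589, 3329, 3538 and 3228 CPM. Of 12 microglia genes 6 were called higher (median 0.32), among them the fractalkine receptor gene Cx3cr1 (0.34 ± 0.07, adjusted p = 0.00915) and the growth factor receptor gene Csf1r (0.29 ± 0.06, adjusted p = 0.0105), of which the latter overlaps Hmgxb3. Against WT, 11 of the 12 microglia genes were called lower in 175Q and none was called in 175QK772T. Of 10 endothelial and mural genes 3 were called higher (median 0.21), including Cldn5, a tight junction gene (0.65 ± 0.12, adjusted p = 0.0053). None of 12 oligodendrocyte genes was called (median -0.05), and of 8 genes of their precursors 1 was, Gpr17 (0.46 ± 0.08, adjusted p = 0.00242), which is uncertain because Lims2 overlaps it on the other strand with 33.3% of its counts. The astrocyte count was 2 without 175QK772T replicate 2, 3 without 175Q replicate 1 or 4 and 4 without 175Q replicate 3. The microglia count was 2 or 3 without any 1 of 6 libraries, all but 175QK772T replicate 1 and 175Q replicate 3. With the cortical genes in the model 11 microglia and 6 astrocyte genes were called, and without 175QK772T replicates 3 and 4 the counts were 0 microglia, 1 astrocyte and 0 endothelial and mural genes.

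Markers of tissue around the striatum and of interneurons were for the most part not called in the main fit, where 7.31% of all genes were called higher. This depended on the low-count filter. Without it 11 cortical excitatory, 11 choroid plexus, 6 GABAergic, 3 cholinergic and 2 thalamic and pallidal genes were called higher, and 1 thalamic and pallidal gene lower. The counts that follow are of the main fit unless a setting is named. Of 12 cortical excitatory neuron genes 2 were called higher, Lamp5 (1.01 ± 0.13, adjusted p = 0.000509) and Nrgn, which encodes neurogranin (1.17 ± 0.16, adjusted p = 0.00116), although the median of the list was 1.00. The other 10 included Slc17a7 (0.99 ± 0.78, adjusted p = 0.447). Of 12 choroid plexus genes none was called (median 1.69), and their sum was 4531 CPM in 175QK772T replicate 3 and 277 to 360 CPM in the other 3. Among cholinergic interneuron genes 1 of 9 was called higher (Slc18a3, 0.86 ± 0.26, adjusted p = 0.0434), a call lost without any 1 of 6 libraries (175QK772T replicates 2 and 4 and all 4 of 175Q, adjusted p of up to 0.133), and with the cortical genes in the model 5 were called. Of 11 GABAergic interneuron genes 2 were called higher, Nos1 (0.48 ± 0.10, adjusted p = 0.00622) and Kit (0.29 ± 0.08, adjusted p = 0.0267), and of 8 thalamic and pallidal genes 1, Lhx2 (0.75 ± 0.15, adjusted p = 0.00752). Kit was lost without 175QK772T replicates 1, 2 or 4 or 175Q replicates 1, 2 or 4 (adjusted p of up to 0.088). None of 6 ependymal genes was called.

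Developmental transcription factors pattern the embryo, and many are silent in adult neurons. This list of families was added after the data were seen. Of its 163 genes 91 passed the filter, and a gene silent in WT passed only through the mutant libraries where it was high, so that no count against WT is given. Between the mutants 8 were called higher and 6 lower in 175QK772T (median -0.02), beside 13.7% of all genes. A gene low in WT and in 1 mutant likewise passed only through the other mutant. These counts are therefore not read as a result about the list. The number lower was 1 without 175Q replicate 1 or 4, 2 without 175QK772T replicate 1 and 3 without 175QK772T replicate 2 or 3 or 175Q replicate 3, and with the cortical genes in the model 11 were higher and 16 lower. The number higher was 5 without 175Q replicate 2. Isl2, a LIM homeobox gene, was at 1.63, 1.6, 1.31 and 1.75 CPM in 175Q and 0.332, 0.234, 0.209 and 0.289 CPM in 175QK772T (-2.54 ± 0.30, adjusted p = 0.00023), with 1 read pair over the 4 WT libraries. In contrast, Hoxc4 was at 1.15, 1.27, 2.33 and 1.95 CPM in 175Q and 3.1, 3.92, 4.08 and 3.74 CPM in 175QK772T (1.19 ± 0.23, adjusted p = 0.00852), with no read pair in any WT library. Nkx6-1 was at 0.0803, 0.127, 0.199 and 0.136 CPM and 0.525, 0.727, 0.977 and 1.21 CPM (2.66 ± 0.51, adjusted p = 0.00466), beside 0.107, 0.0232, 0.29 and 0.152 CPM in WT. Isl2 thus was lower, and Hoxc4 and Nkx6-1 were higher, in every 175QK772T library than in every 175Q library. Isl2 had 260 read pairs in 175Q and 44 in 175QK772T, and Nkx6-1 had 22 and 146 in turn. Both passed the filter through the group where they were high, which favours such a separation. The call of Nkx6-1 was lost without 175QK772T replicates 3 and 4 (adjusted p = 0.139). Hoxc4 was chosen after its values were seen.

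Clock genes moved in both directions, with 3 of 15 called higher and 4 lower (median 0.09), beside 7.31% and 6.35% of all genes. Npas2 (0.79 ± 0.08, adjusted p = 8.08e-05), Hlf (0.53 ± 0.09, adjusted p = 0.00204) and Arntl (0.36 ± 0.08, adjusted p = 0.012) were higher, and Per3 (-0.41 ± 0.09, adjusted p = 0.0119), Ciart (-0.80 ± 0.19, adjusted p = 0.0156), Cry1 (-0.34 ± 0.09, adjusted p = 0.0251) and Nr1d2 (-0.24 ± 0.08, adjusted p = 0.0471) lower. Of the lower genes 3, all but Cry1, were also called lower than WT in 175QK772T. The number called lower was 1 without 175QK772T replicate 2 or 3, 2 without 175Q replicate 1 or 4 and 0 without 175QK772T replicates 3 and 4.

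Mitochondrially encoded genes were called higher for 5 of 13 and lower for none (median 0.44), beside 7.31% of all genes called higher, among them mt-Nd2, a complex I subunit, at 3725 ± 349.5 CPM in 175Q and 5736 ± 641 in 175QK772T (0.63 ± 0.12, adjusted p = 0.00368). The count was 3 without 175QK772T replicate 2 or 175Q replicate 2 and 0 without 175QK772T replicates 3 and 4. Of 20 nuclear-encoded respiratory chain genes 1 was called (Cox5a, 0.26 ± 0.07, adjusted p = 0.0237), and Cox5a lost its call without 175QK772T replicate 2 or 3 or any 1 library of 175Q (adjusted p of up to 0.0641). Among 19 chaperone genes 4 were called higher, including the heat shock gene Hsph1 (0.66 ± 0.09, adjusted p = 0.000461), and 2 were called without 175QK772T replicate 1 or 2 or 175Q replicate 3 or 4. Among 17 cholesterol synthesis genes 3 were called higher and 1 lower (median 0.32), with 8 called higher without 175QK772T replicate 4 and 1 without 175QK772T replicate 1 or 175Q replicate 1 or 2. Of 20 extracellular matrix genes 2 were called higher, beside 7.31% of all genes, and 4 without 175QK772T replicate 4. The 2 were Ncan (0.75 ± 0.08, adjusted p = 0.000161) and Hapln1 (0.61 ± 0.10, adjusted p = 0.0017), which encode components of perineuronal nets. Of 14 glucocorticoid-responsive genes Hif3a and Plin4 were called lower and none higher, but 3 were called higher without 175Q replicate 2 and 1 without 175Q replicate 1 or 175QK772T replicate 4. Without 175QK772T replicates 3 and 4 the list had 1 called higher and 1 lower. Of 18 ribosomal protein genes 1 was called lower (Rps6, -0.22 ± 0.07, adjusted p = 0.0418, lost without any 1 of 6 libraries, 175QK772T replicates 1 to 3 and 175Q replicates 1 to 3, adjusted p of up to 0.166), and of 15 interferon-responsive genes none (median -0.28). All these counts stand beside 7.31% of all genes called higher and 6.35% called lower. Counts of 1 or 2 genes are not read as results about their lists.

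The same comparison in the striatum at 10 weeks, in 8 other mice, called 142 of 20998 genes (0.676%), 130 higher and 12 lower in 175QK772T. Ages were sequenced as separate batches, so that age and batch cannot be told apart. A test of the change of the difference between ages called 225 of 22038 genes (1.02%), with the difference more positive at 26 weeks in 187 and more negative in 38. Fam84a had the smallest p: its log2 fold change was 0.07 ± 0.05 at 10 weeks and 1.11 ± 0.08 at 26 weeks (change 1.06 ± 0.09, edgeR adjusted p = 1.71e-06). At 26 weeks the gene was at 29.8, 24.2, 30.5 and 28.3 CPM in 175Q, 58.7, 65.6, 52.1 and 67 CPM in 175QK772T and 67.1, 64.3, 68.1 and 62.7 CPM in WT. Replicates 2 and 4 of 175QK772T were within the WT range and the other 2 below it, and all 175Q libraries were below both genotypes.

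Grasp, a scaffold of metabotropic glutamate receptors, differed by 0.08 ± 0.08 at 10 weeks and 1.12 ± 0.07 at 26 weeks (change 1.07 ± 0.12, edgeR adjusted p = 3.14e-05). Itpka (change 1.04 ± 0.13, adjusted p = 0.000413) and Ier5l (change 1.71 ± 0.23, adjusted p = 0.000505) followed. Rgs4, Egr3, Rasd2, Scn4b and Cd4 were called as well, with changes of 1.31 ± 0.18, 1.32 ± 0.18, 1.13 ± 0.19, 1.24 ± 0.23 and 2.79 ± 0.38. For the dopamine receptors the change did not pass, at 0.87 ± 0.23 for Drd1 (adjusted p = 0.0806) and 0.92 ± 0.24 for Drd2 (adjusted p = 0.0726). The change of Polr2a was -0.25 ± 0.06 (adjusted p = 0.0358), and its difference was -0.19 ± 0.04 at 10 weeks. Without single libraries the number of genes was 78 (175Q replicate 2), 124 (175QK772T replicate 3) and 135 (175QK772T replicate 2).

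**Figure D5:**
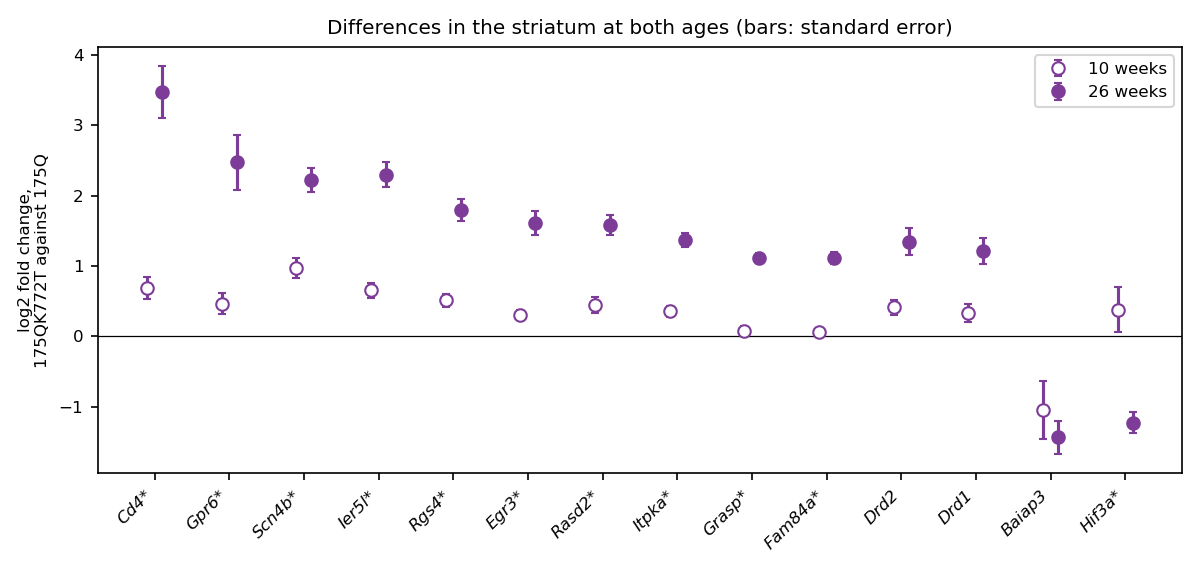
Log2 fold changes of 175QK772T against 175Q in the striatum at 10 weeks (open) and 26 weeks (filled), with bars of 1 standard error, 4 mice a group. Stars mark genes whose change between ages passed the test, such as Cd4 (0.69 and 3.47) and Fam84a (0.07 and 1.11), whereas Drd1 (0.34 and 1.21) did not pass.

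In the cortex of the same mice at 26 weeks the comparison called 700 of 19888 genes, 384 higher and 316 lower. A test of the difference between the regions, with the mouse as a block, called 2 of 20845 genes (0.00959%). An unadjusted p under 0.05 was found for 568, fewer than the 1 in 20 that chance gives. Ptprv differed by 2.47 ± 0.29 in the striatum and 0.02 ± 0.21 in the cortex (difference 2.46 ± 0.31, edgeR adjusted p = 0.043). Asic4, an acid-sensing ion channel gene, differed by 0.59 ± 0.17 and -0.78 ± 0.10 in turn (difference 1.37 ± 0.18, adjusted p = 0.043), and its call in the striatum was lost without any 1 of 6 libraries (175QK772T replicates 1, 2 and 4 and 175Q replicates 1, 2 and 4, adjusted p of up to 0.127). Clspn (adjusted p = 0.0903) and Fkbp5 (adjusted p = 0.224) came next and did not pass. No gene was called without any 1 of 6 mice (175QK772T replicates 2 and 3 and all 4 of 175Q) or with DESeq2's median-ratio scaling in place of TMM, and 1 was called without 175QK772T replicate 4. For Drd1 the fold changes were 1.21 ± 0.18 in striatum and 0.54 ± 0.39 in cortex, and for Rgs4 1.80 ± 0.16 and 1.12 ± 0.18, with no difference called.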

How the data were processed

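Striatum RNA was sequenced as poly(A) libraries with paired 150-base reads. Per the submitters' processing notes, tools included bcl2fastq 2.20.0, Trimmomatic 0.33, HISAT2 2.1.0 and Subread 1.6.2 (featureCounts), with GRCm38. The values are raw read-pair counts per gene as deposited by the authors, 55573 genes, of which 55394 carry a symbol. The 10-week counts were made with a mapping quality of at least 10, strand setting 2 and Ensembl release 97, per the file headers. Strand and quality settings of the 26-week counts are not given in the sources used here.

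Genes were filtered with edgeR's filterByExpr, libraries were scaled by TMM, and a quasi-likelihood model with genotype and sex was fitted to the 12 striatum libraries at 26 weeks (edgeR 4.0.16, R 4.3.3; limma 3.58.1 loaded). P-values were adjusted by Benjamini-Hochberg over all genes, with a threshold of 0.05. They measure the spread between the mice. CPM values are TMM-scaled, group errors are SD, and depth (about 28650600 to 57281400 pairs) limits genes with few counts. Age was tested in 24 libraries, region with the mouse as a block. The test between the mutants was checked on simulated data. It recovered 18% of 1.25-fold, 54% of 1.5-fold, 86% of 2-fold and 96% of 4-fold changes, with 6 false among 133 calls. Simulated levels were means over the 12 libraries, so genes far lower in the mutants than in WT were not simulated at their mutant level. Alternatives used DESeq2 1.42.0, other scaling, no filter, no sex term, a replicate block, a fold threshold (glmTreat, log2 0.2) and left-out libraries.

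Members and lists (34 lists, 468 of 469 genes matched by symbol) were chosen with earlier results of these data known. Named genes were Atxn1, the 12 largest rises and falls among called genes that averaged 1 CPM or more without overlap of the mutants, up to 3 called members of smallest adjusted p per list, and the 4 genes of smallest p for age and region. A few genes that met the rule are not reported here. Genes named beyond this rule were chosen after their values were seen. Replicates of each group differed by more than sampling noise.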

Additional observations from a re-analysis of the deposited data

Results flagged for a closer look

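Among 100 named genes in 3 groups of 4 libraries, 12 of 300 gene and group pairs had 1 library far from the other 3, where chance flags about 1 in 20, or 15. The value, given for 11 of them, is the gap to the nearest library as a share of the group's range. In 175Q, Fgf3 (0.869) and Msmo1 (0.922) stood apart in replicate 4, and Nrgn (0.866) and Gabra4 (0.832) in replicate 2. Gabra4 is uncertain because Gabrb1 overlaps it on the other strand with 121% of its counts. In 175QK772T, Kcnip2 (0.945) and Srebf2 (0.846) stood apart in replicate 4 and Kcnq5 (0.842) in replicate 3. In WT, Lss (0.851) stood apart in replicate 1, Shank3 (0.882) and Isl2 (1) in replicate 2 and Clspn (0.882) in replicate 3.

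The difference between 175QK772T and 175Q changed between ages in 225 genes and differed between striatum and cortex in 2 (edgeR's quasi-likelihood test of the interaction). Among named genes 37 changed with age, beside 1.02% of all tested genes, 34 of them toward a more positive difference at 26 weeks and 3 toward a more negative one. The named genes were chosen in part by their difference at 26 weeks and by this test itself. That choice favours such a count, which is not read as a result about these genes. The following values are the log2 difference at 26 weeks minus that at 10 weeks. Among the largest rises they were 3.5 for Fgf3, 2.79 for Cd4, 2.06 for Lrrc10b, 2.02 for Gpr6, 1.93 for Ptprv, 1.87 for Dmkn, 1.71 for Ier5l, 1.56 for Impg1 and 1.24 for Scn4b. Among other genes of projection neurons and dopamine signalling they were 1.31 for Rgs4, 1.24 for Tac1, 1.13 for Rasd2, 1.04 for Itpka, 0.942 for Oprd1, 0.635 for Plxdc1 and 0.408 for Prkcb. Receptor and channel genes gave 0.824 for Kcnip2, 0.722 for Gabrd, 0.677 for Kcnh3, 0.538 for Gabra2, 0.431 for Grin2c and 0.393 for Gria3. The value of Kcnh3 is uncertain because Mcrs1 overlaps it on the other strand with 63.3% of its counts. Activity, scaffold and signalling genes gave 1.32 for Egr3, 1.07 for Grasp, 0.689 for Dlgap3, 0.539 for Spry2 and 0.528 for Homer1. The rest of the positive changes were 3.58 for Nkx6-1, 1.06 for Fam84a, 0.788 for Lamp5, 0.574 for mt-Nd2, 0.549 for Hsph1, 0.483 for Ncan and 0.47 for Aldh1l1. The negative changes were -1.84 for Il2rb, -1.61 for Hif3a and -0.254 for Polr2a. Between regions the striatum minus cortex values were 2.46 for Ptprv and 1.37 for Asic4.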

How the results depend on the processing

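No named gene changed sign under any setting run, but the developmental list turned from 8 higher and 6 lower to 11 higher and 16 lower with the cortical genes in the model. Of 98 called named genes 86 kept their call without any 1 mutant library and 67 in every setting run for them (16 or 17). Lost were 28 without 175QK772T replicates 3 and 4, 22 with glmTreat, 10 with the replicate block, 2 with the cortical genes and 0 with DESeq2. Of the comparison's 2689 calls (1439 higher, 1250 lower), DESeq2 gave 3362. Without the low-count filter 2331 were higher, with 15 immediate early genes and 872 age changes. With glmTreat 812 were called (582 higher, 230 lower), with 2 astrocyte, 0 microglia, 5 glutamate receptor, 6 potassium channel, 3 immediate early and 6 capicua target genes. With the cortical genes in the model 11 microglia genes were called. Without 175QK772T replicates 3 and 4 the counts were 1005, 680 and 325, with 8 shared projection neuron, 1 astrocyte, 0 microglia, 5 glutamate receptor and 6 capicua target genes. DESeq2 called 500 age changes, and RLE scaling 0 region differences. The causes were not tested. Leaving out 1 library gave 1590 to 2850 calls, 918 to 1563 higher and 468 to 1287 lower. By list it gave 11 to 15 shared projection neuron, 3 to 5 direct-pathway, 7 indirect-pathway, 2 to 8 astrocyte, 2 to 6 microglia, 13 to 17 dopamine, 7 to 10 glutamate receptor, 10 to 13 potassium channel, 3 to 9 immediate early and 7 to 12 capicua target genes. Age changes ran from 78 to 264 and region differences from 0 to 2. Against WT, 175Q gave 7871 to 8577 calls and 175QK772T 3593 to 4785. With each genotype's mean removed, same-numbered mutant libraries correlated at -0.048, -0.23, -0.085 and -0.39 over autosomal genes. They came from different mice of opposite sex, so these values do not settle whether the numbers carry anything more. With the replicate block 1783 genes were called (755 lower), with 3 astrocyte, 2 microglia and 3 immediate early genes and 93 age changes.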
